A study of Mus musculus with 2 samples.

Results

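The FoxO family consists of 4 transcription factor genes, Foxo1, Foxo3, Foxo4 and Foxo6, and all 4 were found by their symbols among the 32285 genes of the deposited count matrices. Their transcripts were followed by scRNA-Seq through 20 finely divided cell types of the mouse small intestinal epithelium. The WT library came from Neurog3Cre; Rosa26tdtomato mice, in which Cre expressed from Neurog3, a progenitor gene of the endocrine lineage, activates the tdTomato reporter in progenitors and all their progeny. The second library, labelled NFKO, came from Neurog3Cre-FoxO1 f/f; Rosa26tdtomato mice, which carry the same Cre and reporter together with floxed FoxO1 alleles. Red cells were sorted from whole small intestines with the pancreas dissected away, 4 to 5 mice of 4 to 6 weeks of age being pooled into 1 library per genotype. Cre activity limits the model to cells with a history of Neurog3 expression, and the pooled animals cannot be separated again. With 1 library per genotype there was no replicate, so no p-value is given.

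FoxO proteins bind DNA through a forkhead domain and switch on genes of stress resistance, cell cycle arrest, gluconeogenesis and apoptosis. Insulin and IGF signals act through PI3K and Akt, which phosphorylates FoxO1 so that 14-3-3 proteins hold it in the cytoplasm. In endocrine cells FoxO1 is best known as a regulator of cell identity. Because much of this control acts on the protein, the transcript counts given here measure how much FoxO mRNA a cell type held and not how active the proteins were.

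The coding sequences show how near the members are to each other at the part that touches DNA. The longest run of residues that all 4 proteins have in common was 27 residues long, in the forkhead domain. Its first 17 residues, up to a splice junction, are encoded by the 51 bases shown here, taken 5′ to 3′ from GENCODE M21 transcripts on GRCm38, with capitals at each base that differs from Foxo1.
Foxo1: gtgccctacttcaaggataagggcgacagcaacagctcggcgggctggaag
Foxo3: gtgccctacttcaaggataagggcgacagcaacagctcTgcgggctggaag
Foxo4: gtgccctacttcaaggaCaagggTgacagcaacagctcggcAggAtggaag
Foxo6: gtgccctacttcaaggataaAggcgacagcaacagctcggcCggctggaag
The stretch lies at chr3:52269372-52269422 on the plus strand in exon 1 of Foxo1, at chr10:42274816-42274866 on the minus strand in exon 2 of Foxo3, at chrX:101255223-101255273 on the plus strand in exon 1 of Foxo4 and at chr4:120286839-120286889 on the minus strand in exon 1 of Foxo6. Foxo3 differed from Foxo1 at 1 of the 51 bases, Foxo6 at 2 and Foxo4 at 4. Outside this domain the proteins part widely, so that over whole translated coding sequences between 47.7% and 51.8% of aligned residues were identical, for Foxo1 with Foxo6 and for Foxo3 with Foxo6. Counting took place at the 3′ ends of the mRNAs, away from this stretch. Foxo1 (ENSMUSG00000044167) spans chr3:52268336-52353221 and ends in an exon, chr3:52346996-52353221, that is wholly 3′ UTR. Foxo3 (ENSMUSG00000048756) spans chr10:42181841-42276755, Foxo4 (ENSMUSG00000042903) chrX:101254528-101260873 and Foxo6 (ENSMUSG00000052135) chr4:120267079-120287349. Since the labels do not say which part of FoxO1 is floxed, a 3′ count checks the deletion only if that part reaches the counted end. Levels of different members were not ranked against each other, because capture at the 3′ end can differ between genes.

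The values rest on 3003 WT cells with a median of 16883 unique molecular identifiers (UMIs, each marking 1 captured transcript) per cell. The library labelled NFKO gave 5292 cells with a median of 17039. Levels are given in CPM, the UMIs of a gene scaled to the UMIs of all genes, both summed over the cells of a type, with an exact Poisson 95% interval. Ratios between libraries divide the level in the library labelled NFKO by that in WT and carry an exact conditional binomial 95% interval, and every interval covers counting error only. Because a few products fill much of a secretory cell's library, contrasts between types were also scaled to the UMIs left without the 44 genes that took over 1% of the UMIs of any type, a scaling chosen after seeing the data, and these values are given where a call changed. Types were named from marker genes after clustering, and the 4 members took no part in that clustering. The epithelial label was borne out by the markers: over all cells the summed level of 8 immune markers was 27.9 CPM in WT against 2.88 in the library labelled NFKO, and that of 6 pancreatic acinar markers 0.8 and 1.78. The sum of 6 stromal and endothelial markers was 100 and 128 CPM, nearly all of it Vim. This sum was 670 and 473 CPM in the cells called enteroendocrine-like, against 0.737 and 2.25 in goblet-like cells. The 8 enteroendocrine markers summed to 22874 and 18849 CPM in the cells called enteroendocrine-like and to 34.2 and 125 CPM in goblet-like cells. The libraries stood apart in sex. By Y-linked transcripts and Xist, 2424 WT cells were typed male and 6 female, against 357 male and 4359 female in the library labelled NFKO, so that sex and genotype cannot be told apart in a ratio over all cells. Only 6 cell barcodes occurred in both libraries.

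Foxo1, the targeted member, was first read over all cells. Its level was 11.6 CPM in WT (10.8 to 12.3, from 910 UMIs). The library labelled NFKO had a level of 12.4 CPM (11.8 to 13.1, from 1381 UMIs). The ratio was 1.07 (0.987 to 1.17), so a lower transcript count was not seen, and these counts give no check of the genotype. Every comparison between the libraries therefore rests on the label.

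Foxo1 transcripts were more frequent in hormone cells than in goblet-like cells. In WT, enteroendocrine-like cells (EECs), named from genes of hormone granules and of the endocrine programme such as Chga and Neurod1, held Foxo1 at 25.9 CPM (23.0 to 29.2) from 282 UMIs in 893 cells. Goblet-like cells, the mucus producers, held it at 7.90 CPM (6.69 to 9.27) from 150 UMIs in 838 cells. The EEC level was thus 3.28 times the goblet level (2.68 to 4.03). In the library labelled NFKO the levels were 22.1 CPM (20.4 to 23.9) in 1887 EECs and 7.47 CPM (6.53 to 8.50) in 1550 goblet-like cells, a ratio between the types of 2.96 (2.54 to 3.46). Both libraries therefore showed higher Foxo1 in EECs than in goblet-like cells, by more than counting error. EECs did not stand above every other type in WT, where tuft-like cells held Foxo1 at 26.8 CPM (15.9 to 42.3). Without the abundant genes the WT levels were 33.4 CPM in tuft-like cells and 32.4 in EECs. In the library labelled NFKO, tuft-like cells held 8.03 CPM (4.76 to 12.7).

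**Figure D1:**
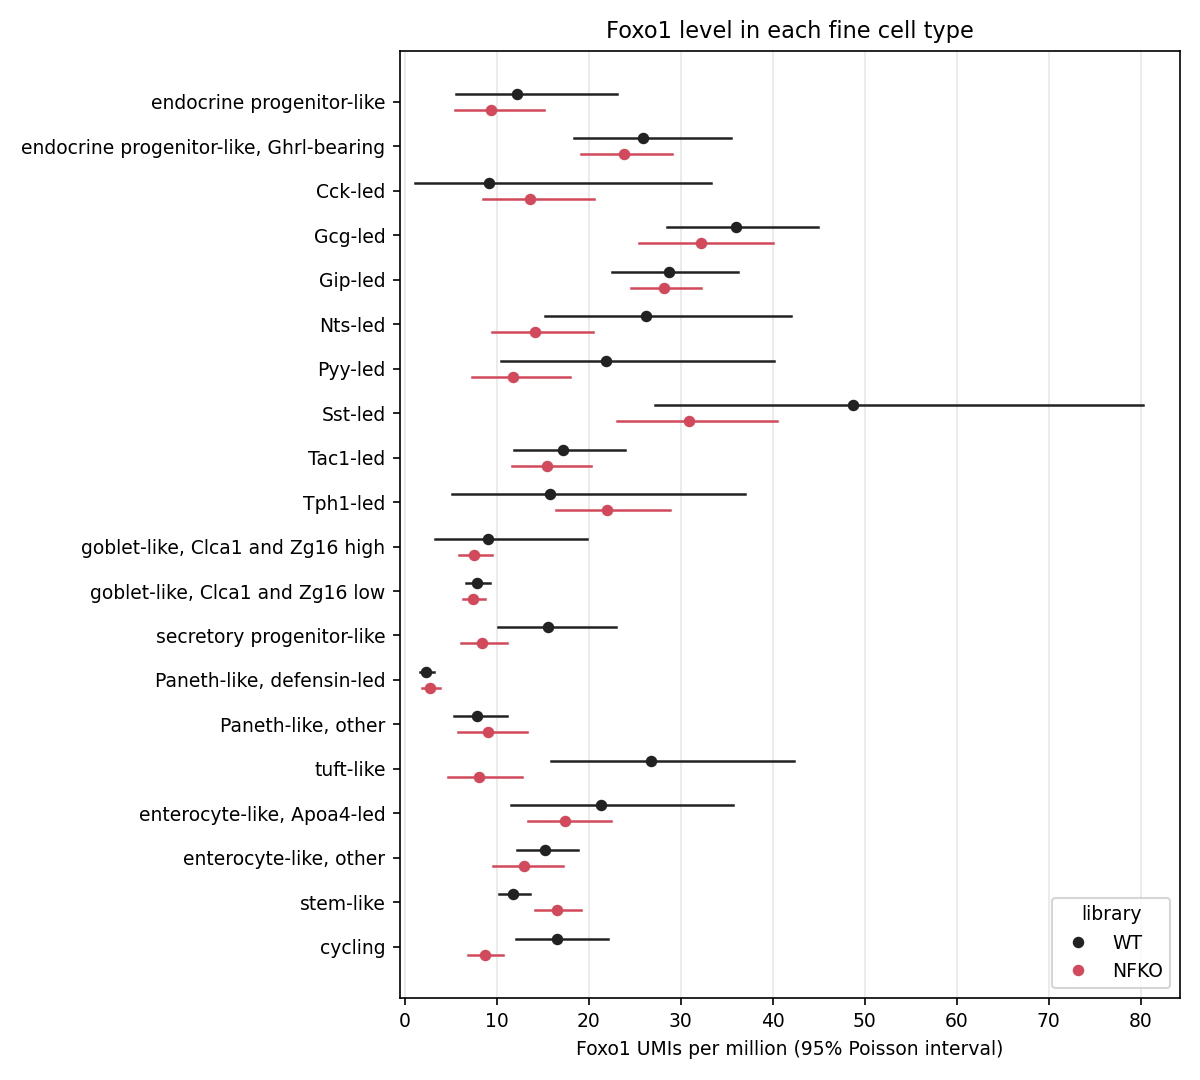
Foxo1 level in each of the 20 named cell types, in CPM, with WT in black and the library labelled NFKO in red; points are levels and bars exact Poisson 95% intervals. Gcg-led, Sst-led and Gip-led cells lie at or above 28.2 CPM in both libraries, defensin-led Paneth-like cells lie below 3 CPM, and the bars of the libraries are apart in the stem-like and tuft-like rows and in cycling cells.

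Within the EECs, Foxo1 was unevenly spread over the hormone subtypes, each of which was called by the hormone gene with the highest fold over the other EECs. That gene need not be the most abundant hormone: in Pyy-led and Tph1-led cells Sct, the gene of secretin, had more UMIs, at 126008 and 26572 CPM against 61435 of Pyy and 4782 of Tph1. Sst-led cells, named for the gene of somatostatin, had 48.7 CPM in WT (27.2 to 80.3, 15 UMIs in 36 cells) and 30.9 in the library labelled NFKO (23.1 to 40.5, 52 UMIs in 109 cells). Gcg-led cells, named for the glucagon and GLP-1 precursor, had 36.0 CPM (28.5 to 44.9) and 32.2 (25.5 to 40.0). Gip-led cells, named for the incretin GIP, had 28.7 CPM (22.5 to 36.2) and 28.2 (24.6 to 32.2). These 3 subtypes held the highest WT levels and also the highest levels in the other library, and their intervals overlapped each other.

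Tac1 and Tph1 are genes that mark serotonin-producing enterochromaffin cells, and the Tac1-led subtype had a lower level than Gcg-led, Sst-led and Gip-led cells. Tac1-led cells, named for the substance P precursor, had 17.2 CPM (11.9 to 24.0) in WT against 15.5 (11.7 to 20.3) in the library labelled NFKO. They joined a sub-cluster of 111 WT cells and 189 of the other library, with Neurog3 at 558 CPM, and one of 57 and 74 cells, with Neurog3 at 35.1 CPM. Foxo1 was not read in each sub-cluster, so the part of this mix in the Tac1-led level was not tested. The Gcg-led level was 2.09 times the Tac1-led one in WT (1.38 to 3.23) and 2.07 times in the other library (1.45 to 2.98), and the Sst-led level 2.83 times (1.43 to 5.34) and 1.99 times (1.33 to 2.96). The Gip-led level was 1.67 times the Tac1-led one (1.10 to 2.59) and 1.82 times (1.34 to 2.49). Tph1-led cells, named for the enzyme that starts serotonin synthesis, had 15.8 CPM (5.14 to 37.0) in WT from 5 UMIs in 32 cells and 22.0 (16.5 to 28.8) in the other library from 53 UMIs in 261 cells. Their level did not differ from the Tac1-led one beyond counting error in either library, at 0.922 times (0.281 to 2.37) and 1.42 times (0.953 to 2.11), although without the abundant genes it was 1.53 times (1.02 to 2.27) in the library labelled NFKO. The Tph1-led interval overlapped those of Gcg-led, Sst-led and Gip-led cells in both libraries, and no ratio to these was formed.

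The remaining peptide subtypes differed between the libraries in their place. Nts-led cells, named for neurotensin, had 26.2 CPM (15.3 to 42.0) in WT against 14.2 (9.44 to 20.5) in the library labelled NFKO. Pyy-led cells, named for peptide YY, had 21.9 CPM (10.5 to 40.2) and 11.8 (7.28 to 18). Cck-led cells, named for cholecystokinin, had 9.22 CPM (1.12 to 33.3) from 2 UMIs in 15 WT cells and 13.6 (8.52 to 20.6) from 22 UMIs in 73 cells. In the library labelled NFKO, the Gcg-led level was 2.26 times the Nts-led one (1.45 to 3.61) and 2.73 times the Pyy-led one (1.67 to 4.65). In WT the same contrasts were 1.37 (0.806 to 2.48) and 1.65 (0.849 to 3.56), whose intervals hold both no difference and the values of the other library. The WT cells of these subtypes were few and in part shallow, the median Nts-led cell holding 5371 UMIs in WT against 17329 in the other library.

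A pair of EEC groups met the progenitor markers, one without a leading hormone and one with Ghrl, the gene of ghrelin. The second held Ghrl at 58212 CPM, a level like that of a hormone subtype, and Neurog3 at 450 CPM, less than the 558 CPM of 1 of the 2 Tac1-led sub-clusters. The hormone-free progenitor-like cells, which held Neurog3 at 1561 CPM, had 9 Foxo1 UMIs in 58 WT cells, 12.2 CPM (5.58 to 23.1), and 17 UMIs in 119 cells of the other library, 9.42 CPM (5.49 to 15.1). The Ghrl-bearing progenitor-like cells had 25.9 CPM (18.4 to 35.5) and 23.8 (19.2 to 29.1). Foxo1 was thus 2.13 times as high in the Ghrl-bearing group in WT (1.01 to 4.99) and 2.52 times in the library labelled NFKO (1.49 to 4.51). Taken as a whole, the hormone-led subtypes, which include the Tac1-led sub-cluster with Neurog3 at 558 CPM, were set against the hormone-free progenitors. They held 2.22 times the Foxo1 level of hormone-free progenitors in WT (1.15 to 4.93) and 2.42 times in the other library (1.5 to 4.19). The interval held 1 for Foxo3, at 0.878 times (0.571 to 1.41) and 1.16 times (0.830 to 1.66), and for Foxo4, at 0.981 times (0.556 to 1.89) and 1.11 times (0.721 to 1.8). Without the abundant genes the Foxo3 value in the library labelled NFKO was 1.43 times (1.02 to 2.05), and that of Foxo1 2.99 times (1.85 to 5.18). Whether the members differed in this step was not tested.

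Among goblet-like cells, the relation of Foxo1 to Clca1 and Zg16, genes of secreted mucus proteins, depended on the scaling. Cells with high Clca1 and Zg16 had 9.10 CPM (3.34 to 19.8) in WT against 7.51 (5.86 to 9.47) in the library labelled NFKO, and cells low in both had 7.86 (6.63 to 9.25) and 7.45 (6.34 to 8.71). The abundant genes took 49.1% and 52.8% of UMIs in the high cells and 26.2% and 22.3% in the low ones. Without them the levels were 17.9 and 15.9 CPM in high and 10.6 and 9.59 in low cells, a ratio between the states of 1.68 (0.606 to 3.74) in WT and 1.66 (1.23 to 2.21) in the library labelled NFKO. The low cells of the libraries came from different clusters: in WT, 585 of 752 lay in a cluster led by Edn2 and Areg that held 25 cells of the other library, where 728 of 753 lay in a cluster led by Mptx1. The first of these clusters had a Foxo1 level of 8.35 CPM (6.90 to 10.0) in WT, and the second one of 6.32 (4.20 to 9.13) in WT and 7.54 (6.40 to 8.82) in the other library. A cluster held almost wholly by 1 library may be that library and not a cell state.

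Paneth-like cells, which secrete antimicrobial defensins, gave the lowest value of all. Defensin-led cells had 2.34 CPM (1.67 to 3.19) in WT against 2.77 (1.92 to 3.87) in the library labelled NFKO, apart from the next type in both libraries. In these cells the 44 abundant genes made up 78.2% of UMIs in WT against 74.9% in the other library. Scaled to the UMIs of the remaining genes, the levels were 10.7 and 11.0 CPM, beside 10.6 and 9.59 in goblet-like cells low in Clca1 and Zg16. Their last place therefore depended on the scaling. The other Paneth-like cells, led by genes other than defensins, had 7.85 CPM (5.33 to 11.1) and 9.04 (5.85 to 13.3), and 12.3 and 13.8 without the abundant genes.

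Tuft-like cells, the chemosensory cells of the epithelium, held Foxo1 at 26.8 CPM in WT (15.9 to 42.3, 18 UMIs in 88 cells) and at 8.03 in the library labelled NFKO (4.76 to 12.7, 18 UMIs in 140 cells). Apoa4-led enterocyte-like cells, the absorptive cells with most apolipoprotein, had 21.3 CPM (11.6 to 35.7) and 17.4 (13.4 to 22.4), and the other enterocyte-like cells 15.2 (12.2 to 18.8) and 13.0 (9.59 to 17.2). Stem-like cells, with Lgr5 and Olfm4 among their markers, also carried all 7 cycling markers and so are not set apart from cycling cells by proliferation. They had 11.8 CPM (10.2 to 13.6) from 185 UMIs in 307 WT cells and 16.6 (14.2 to 19.2) from 174 UMIs in 208 cells. Cycling cells had 16.6 CPM (12.1 to 22.1) and 8.68 (6.93 to 10.7), and secretory progenitor-like cells, which carry Notch ligand genes, 15.6 (10.1 to 23.0) and 8.36 (6.17 to 11.1). In the order of the 20 types each neighbour overlapped the next, save the defensin-led cells at the foot. The orders of both libraries had a Spearman correlation of 0.68 for Foxo1 over the 16 types with at least 50 cells in each, 0.84 for Foxo3, 0.77 for Foxo4 and 0.84 for Foxo6, where the points of a library share that library.

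Detection in single cells was sparse. A Foxo1 UMI was seen in 25.3% of WT EECs and 26.0% of those labelled NFKO, and no cell held more than 5. With each cell thinned to 5000 UMIs the share was 12.5% of 816 WT EECs (exact binomial 10.3 to 15.0) and 10.3% of 1797 (8.93 to 11.8), against 3.59% of 779 goblet-like cells (2.40 to 5.15) and 4.11% of 1289 (3.09 to 5.34). Thinning left out 77 and 90 shallower EECs and 59 and 261 goblet-like cells, whose unthinned shares were 16.0% and 12.2%. No cell type of this sort is known to lack Foxo1, so a background share from free RNA could not be set, and its part in these shares was not tested. At the same depth 4.78% of WT EECs held UMIs of a pair among Foxo1, Foxo3 and Foxo4, 25.2% of only one of them and 70.0% of none; in the library labelled NFKO these shares were 2.34%, 23.3% and 74.3%.

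Foxo3 followed the same broad pattern. EECs held it at 27.3 CPM (24.3 to 30.6) in WT against 22.6 (20.9 to 24.4) in the library labelled NFKO, and goblet-like cells at 7.53 (6.35 to 8.87) and 8.06 (7.08 to 9.13). The EEC level was 3.63 times the goblet level (2.96 to 4.46) and 2.80 times (2.42 to 3.26). Of the named types, Gip-led cells had the highest level over summed UMIs, 35.9 CPM (28.9 to 44.1) and 30.7 (26.9 to 34.8), which was 1.65 times the Tac1-led level in WT (1.14 to 2.43) and 1.66 times in the other library (1.26 to 2.23). That first place was not fixed: Apoa4-led enterocyte-like cells came first without the abundant genes in WT, and by the mean of per-cell CPM in the library labelled NFKO.

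Foxo3 was unequal between states within the absorptive and the goblet lineage. Apoa4-led enterocyte-like cells had 27.4 CPM (16.2 to 43.3) in WT against 19.1 (14.9 to 24.3) in the library labelled NFKO, and the other enterocyte-like cells 7.96 (5.81 to 10.7) and 7.31 (4.82 to 10.6). The ratio between them was 3.44 (1.87 to 6.06) and 2.62 (1.65 to 4.25), while for Foxo1 it was 1.40 (0.735 to 2.48) and 1.34 (0.906 to 2), or 1.79 (0.941 to 3.17) and 1.56 (1.05 to 2.32) without the abundant genes. Goblet-like cells high in Clca1 and Zg16 had 19.7 CPM of Foxo3 (10.5 to 33.7) and 12.2 (10.0 to 14.6), against 7.09 (5.93 to 8.42) and 6.23 (5.21 to 7.38) in the low cells. This ratio was 2.78 (1.44 to 4.92) and 1.95 (1.51 to 2.53), beside 1.16 (0.418 to 2.58) and 1.01 (0.750 to 1.34) for Foxo1; without the abundant genes it was 4.03 (2.09 to 7.13) and 3.21 (2.48 to 4.16) for Foxo3, beside the 1.68 and 1.66 given for Foxo1. The states with more Foxo3 were also the shallower ones, with a median of 3928 and 5091 UMIs in Apoa4-led against 38066 and 32252 in other enterocyte-like cells, and of 4918 and 7284 in high against 24978 and 29372 in low goblet-like cells. The part of depth in these ratios was not tested.

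**Figure D2:**
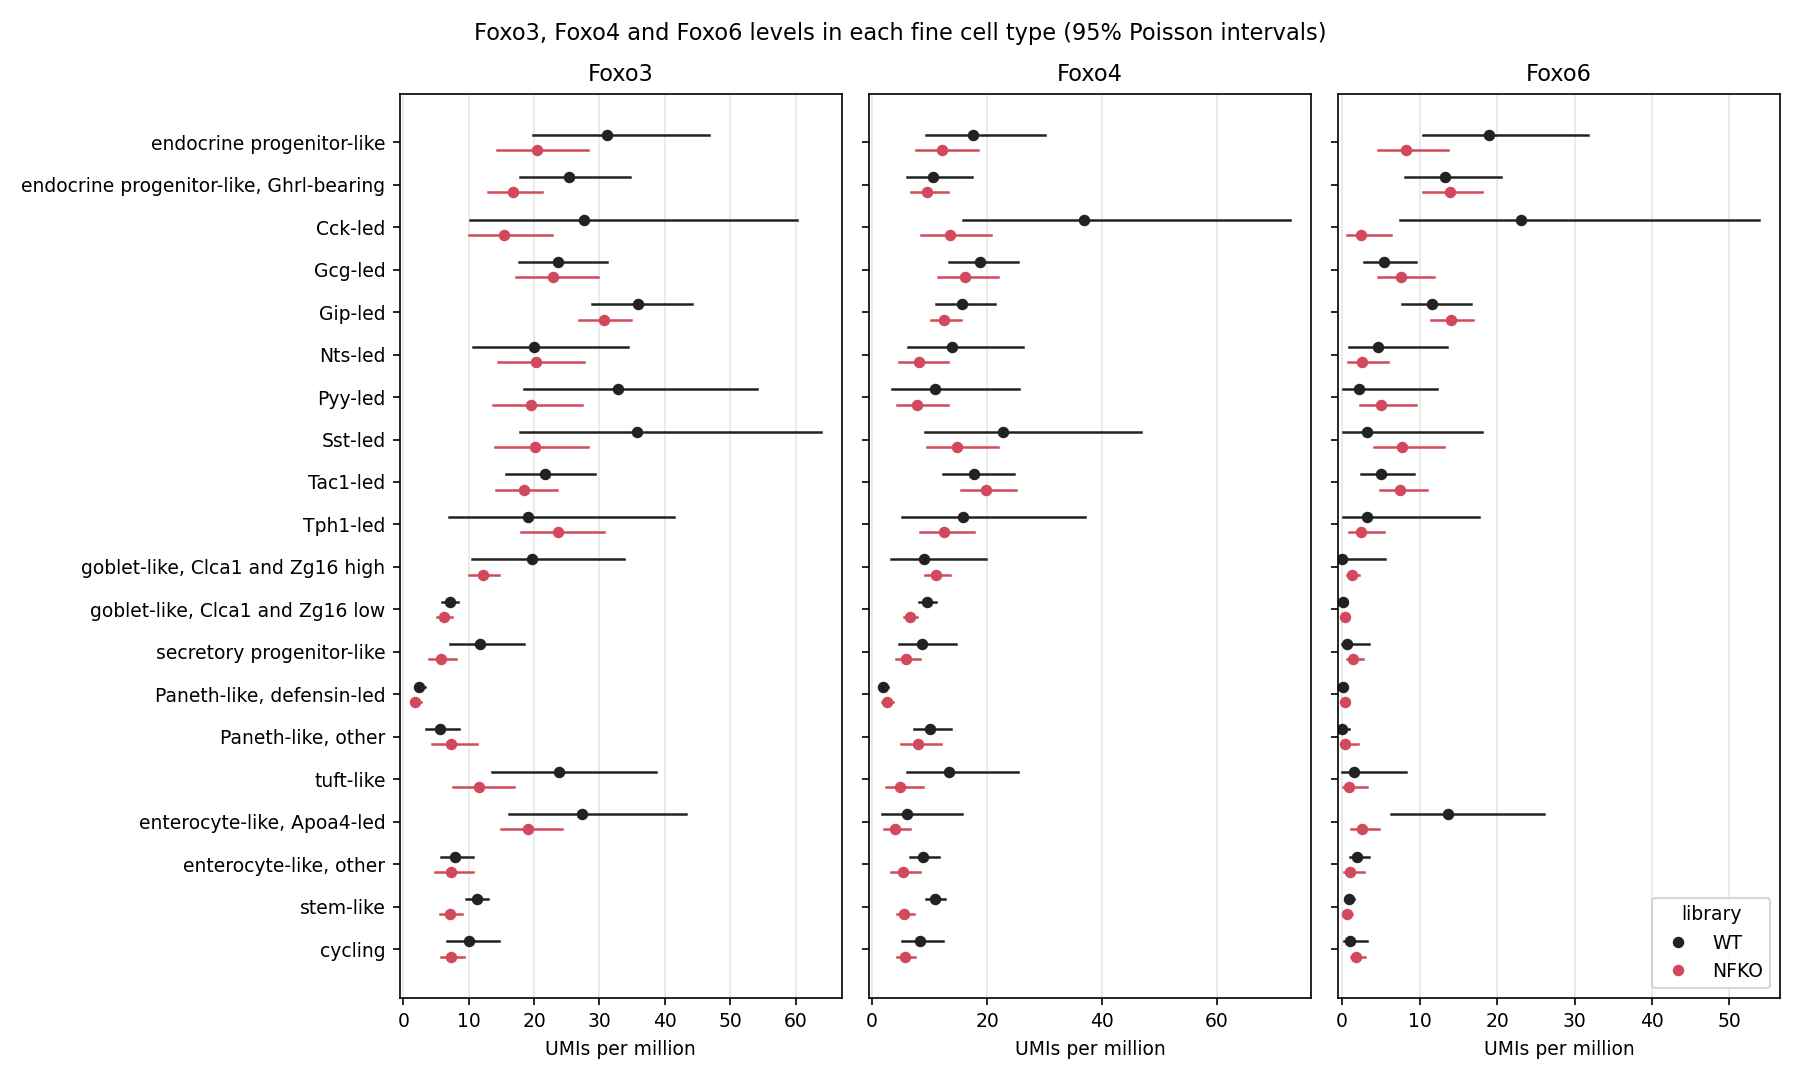
Levels of Foxo3, Foxo4 and Foxo6 in each of the 20 named cell types, in CPM, with WT in black and the library labelled NFKO in red and exact Poisson 95% intervals as bars. Foxo3 in Gip-led cells lies at 35.9 and 30.7 CPM, Foxo4 is lowest in defensin-led Paneth-like cells at 1.93 and 2.52 CPM, and Foxo6 does not pass 1.49 CPM in any goblet-like, Paneth-like, tuft-like or stem-like group.

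Foxo4, the X-linked member, was more evenly spread. EECs held it at 16.4 CPM (14.1 to 19.0) in WT against 12.9 (11.6 to 14.3) in the library labelled NFKO, and goblet-like cells at 9.53 (8.19 to 11.0) and 8.06 (7.08 to 9.13), a ratio between the types of 1.72 (1.39 to 2.12) and 1.6 (1.36 to 1.89). In the library labelled NFKO, Tac1-led cells had the highest Foxo4 level, 19.9 CPM (15.4 to 25.1), and the Gip-led level of 12.6 (10.3 to 15.4) was 0.637 times as high (0.464 to 0.879), but 0.771 times (0.561 to 1.06) without the abundant genes. In WT the same ratio was 0.879 (0.543 to 1.43), from 17.7 CPM (12.3 to 24.6) in Tac1-led and 15.6 (11.1 to 21.3) in Gip-led cells. For Foxo1 and Foxo3 the Gip-led cells had the higher level in both libraries under both scalings. Because the libraries differ in sex, Foxo4 was also compared inside the library labelled NFKO, where female-typed cells held 8.05 CPM and male-typed cells 6.74, a ratio of 1.2 (0.919 to 1.58). For Foxo1 the female-typed level of 12.7 CPM was 0.956 times the male-typed one of 13.2 (0.790 to 1.16).

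Foxo6, a member best known from brain, had the largest share of its UMIs in EECs. It had 96 UMIs in WT EECs, 8.83 CPM (7.15 to 10.8), and 262 in those labelled NFKO, 9.03 CPM (7.97 to 10.2). Goblet-like cells had 2 UMIs in WT, 0.105 CPM (0.0128 to 0.381), and 20 in the other library, 0.652 CPM (0.398 to 1.01). The EEC level was 83.9 times the goblet level in WT (22.6 to 702) and 13.8 times in the library labelled NFKO (8.78 to 23.0). EECs gave 64.4% of all Foxo6 UMIs in WT against 75.9% in the other library, where they held 13.8% and 26.1% of the UMIs of all genes. For Foxo3 their shares were 35.6% and 51.9%, and for Foxo4 25% and 42.5%. At 5000 UMIs per cell, 4.17% of WT EECs (2.90 to 5.77) held a Foxo6 UMI and 0 of 779 goblet-like cells did, which allows a share of up to 0.385% by the limit of 3 counts; this limits cells with a UMI at this depth, not cells that express the gene. Within the EECs, the Ghrl-bearing progenitor-like cells had 13.3 CPM (8.12 to 20.5) in WT and 13.9 (10.5 to 18.1) in the other library, and the Gip-led cells 11.6 (7.75 to 16.6) and 14 (11.5 to 16.9), the highest levels of the library labelled NFKO. In WT, higher values were found in the hormone-free progenitors, with 19.0 CPM (10.4 to 31.8, 14 UMIs), and in the 15 Cck-led cells, with 23.1 CPM (7.49 to 53.8, 5 UMIs). Against these, the other library had 8.31 CPM in hormone-free progenitors, a ratio of 0.438 (0.197 to 0.98), and 2.47 in Cck-led cells, a ratio of 0.107 (0.0213 to 0.498). Both ratios rest on 15 UMIs or fewer on a side. Gip-led cells held 2.29 times (1.08 to 5.26) and 1.88 times (1.22 to 3) the Foxo6 level of Tac1-led cells. Outside the EECs, WT Apoa4-led enterocyte-like cells stood out with 13.7 CPM (6.26 to 26.0), but this rested on 9 UMIs in 6 cells, of which 3 cells gave 66.7%.

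The libraries were then compared within each type, which asks whether the floxed gene moved where the Cre had acted. In EECs as a whole, pools whose mix of subtypes differed between the libraries, the Foxo1 ratio was 0.853 (0.740 to 0.984). Foxo3 and Foxo4, which were not targeted, were lower to a like extent, with ratios of 0.826 (0.719 to 0.951) and 0.789 (0.658 to 0.949), and Foxo6 had 1.02 (0.806 to 1.31). Setting Foxo1 against Foxo3 in the same cells needs no scaling, and the ratio of their ratios was 1.03 (0.844 to 1.26); against Foxo4 it was 1.08 (0.855 to 1.36). A Foxo1 loss in EECs beyond that of its paralogs was thus not seen, and a relative loss below 0.844-fold lay outside the interval against Foxo3. The EEC value lies near no change, since its upper bound reached 1.00 with median-of-ratios size factors, 1.01 without the abundant genes and 1.23 in male-typed cells.

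Among all genes with at least 100 UMIs in a type, 20.4% of gene and type pairs had an interval wholly above 1 and 14.9% one wholly below 1, so that intervals apart from 1 were common over the genome. In none of the 10 enteroendocrine subtypes did the Foxo1 interval leave 1. The ratio was 0.983 (0.750 to 1.30) in Gip-led, 0.893 (0.646 to 1.23) in Gcg-led, 0.904 (0.578 to 1.43) in Tac1-led and 0.916 (0.624 to 1.37) in Ghrl-bearing progenitor-like cells, the best counted subtypes. It was lowest in Pyy-led cells at 0.538 (0.242 to 1.28), in Nts-led cells at 0.542 (0.287 to 1.06) and in Sst-led cells at 0.634 (0.352 to 1.21), where counts in WT were between 10 and 17 UMIs. When each EEC was given instead to the hormone gene that dominated it, the Foxo1 interval held 1 in all 11 groups. Gip-led cells joined sub-clusters that the libraries held in unlike shares. A sub-cluster with Gip at 67947 CPM had 176 WT cells and 244 of the other library, and one with 262518 CPM had 14 and 197. The part of this mix in the Gip-led ratio was not tested.

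**Figure D3:**
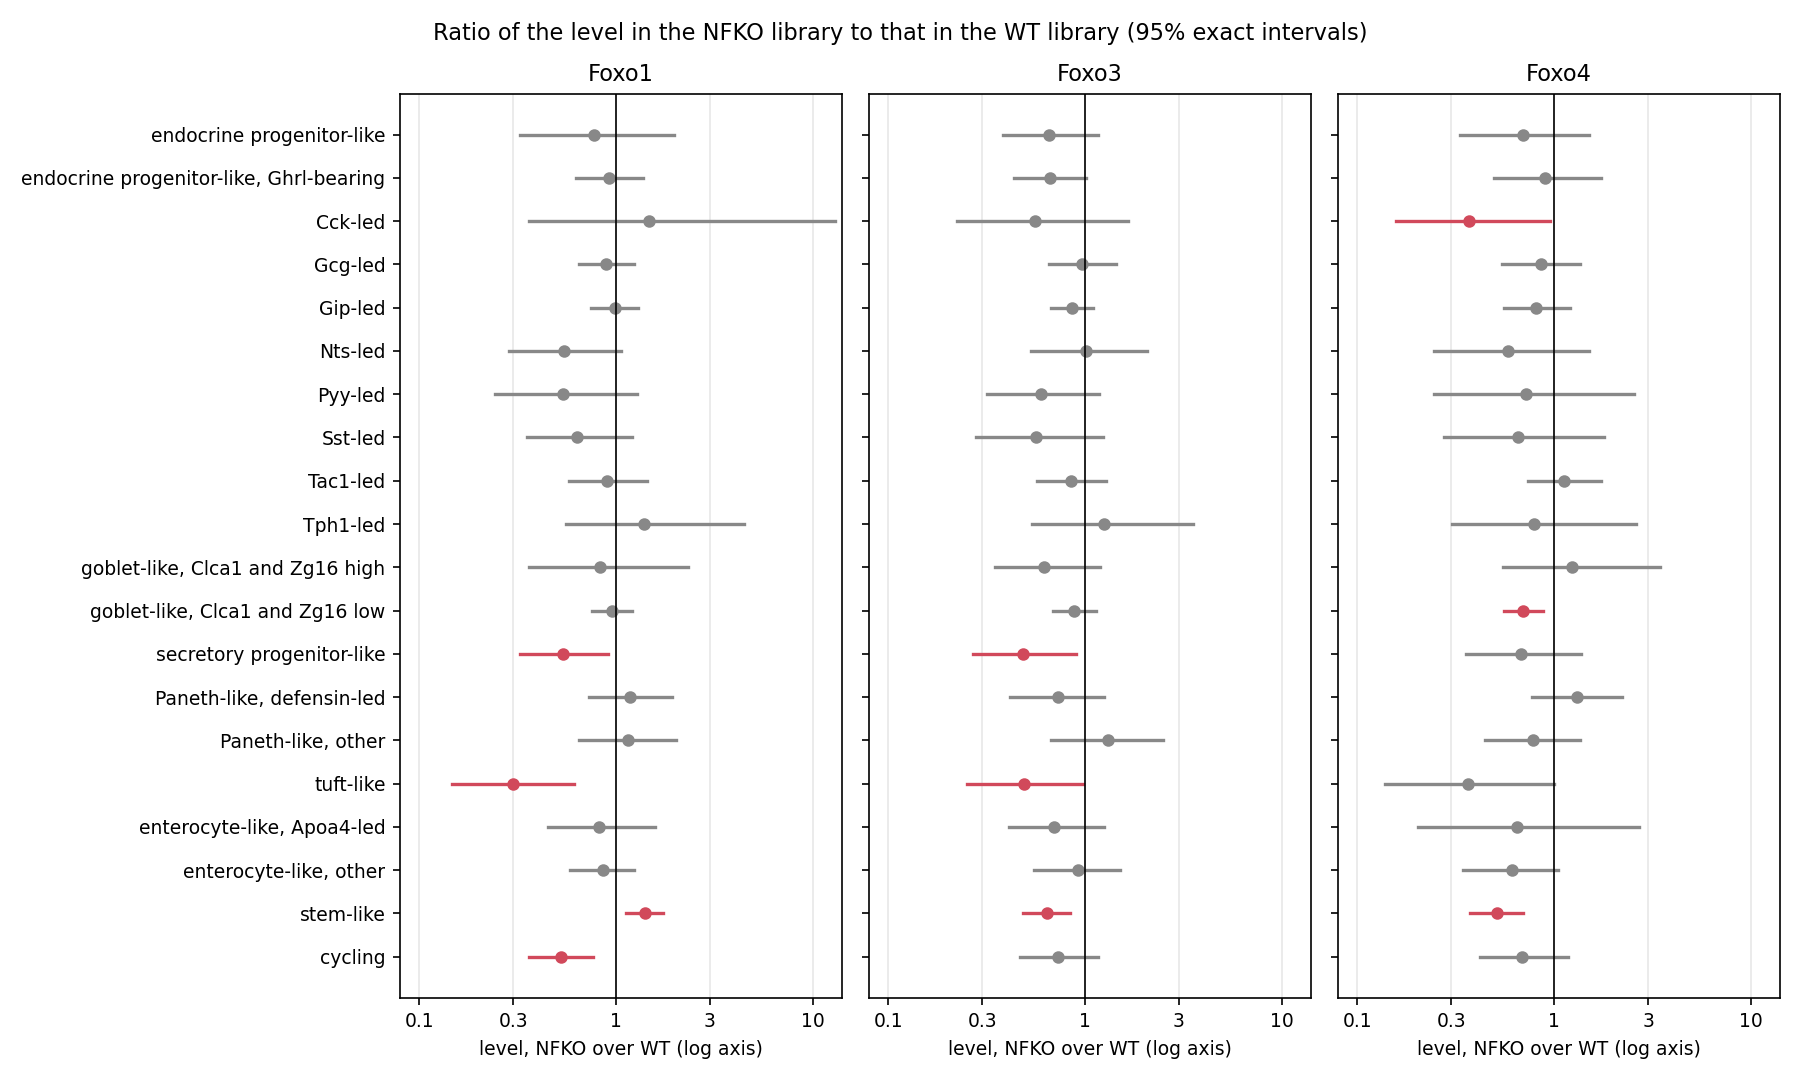
Ratio of the level in the library labelled NFKO to that in WT for Foxo1, Foxo3 and Foxo4 in each of the 20 named cell types, on a log axis with exact conditional 95% intervals; red marks intervals that leave out 1 and the line stands at no change. Foxo1 is red at 1.40 in stem-like cells and at 0.3, 0.523 and 0.537 in tuft-like, cycling and secretory progenitor-like cells, and grey in every enteroendocrine subtype.

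Outside the EECs, Foxo1 was lower in 3 types and higher in 1 by intervals that left out 1. Tuft-like cells had a ratio of 0.3 (0.147 to 0.611), cycling cells 0.523 (0.361 to 0.767) and secretory progenitor-like cells 0.537 (0.324 to 0.909). The paralogs had values below 1 in the same types, with Foxo3 at 0.487 (0.252 to 0.972), 0.728 (0.465 to 1.17) and 0.486 (0.268 to 0.904) and Foxo4 at 0.366 (0.138 to 1.00), 0.690 (0.418 to 1.17) and 0.679 (0.355 to 1.37). Set against Foxo3, Foxo1 had 0.619 (0.227 to 1.67) in tuft-like, 0.720 (0.391 to 1.31) in cycling and 1.10 (0.490 to 2.47) in secretory progenitor-like cells, so that a change particular to Foxo1 was not detectable at this depth. The WT tuft-like cells were shallow and rich in mitochondrial UMIs, with a median of 6153 UMIs and 12.5% mitochondrial against 16720 and 4.94% in the other library. With at most 10% mitochondrial UMIs the tuft-like Foxo1 ratio was 0.252 (0.110 to 0.600). Without doublet removal the secretory progenitor-like ratio was 0.695 (0.449 to 1.1), and clustering with other random seeds did not give the type. In male-typed cells none of the 3 lower calls held, with 0.165 (0.00394 to 1.06) in tuft-like, 0.635 (0.284 to 1.28) in cycling and 0.259 (0.00629 to 1.59) in secretory progenitor-like cells, which numbered 11, 26 and 10 in the library labelled NFKO.

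Stem-like cells were the exception. The Foxo1 level of 16.6 CPM was higher than the WT level of 11.8, with a ratio of 1.40 (1.13 to 1.74). Foxo3 was lower, with 7.14 CPM (5.62 to 8.95, 75 UMIs) against 11.2 in WT (9.57 to 12.9, 175 UMIs) and a ratio of 0.640 (0.481 to 0.843). Foxo4 was lower too, with 5.62 CPM (4.28 to 7.25, 59 UMIs) against 11.0 in WT (9.39 to 12.7, 172 UMIs) and a ratio of 0.512 (0.374 to 0.692). Foxo1 thus moved against its paralogs in these cells. Foxo1 relative to Foxo3 was 2.19 times as high in the library labelled NFKO (1.54 to 3.13), and relative to Foxo4 2.74 times (1.88 to 4.01). Of the 20 types it was the only one in which either of these intervals left 1. Among male-typed cells of both libraries, 288 and 30 in number, the Foxo1 ratio was 1.46 (0.963 to 2.15) and the value relative to Foxo3 2.06 (1.02 to 4.35), and within the library labelled NFKO male-typed and female-typed stem-like cells both had 17.3 CPM. The counts did not rest on a few cells, as the 3 cells with most Foxo1 gave 6.49% of its UMIs in WT against 7.47% in the other library.

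Of the types in which a member had at least 100 UMIs, as for the background shares of 20.4% and 14.9%, Foxo1 had 7, of which 1 lay above and 1 below. Foxo3 had 8 such types, with 1 below, and Foxo4 had 5, with 2 below. Foxo6 had 1, where its interval held 1. With so few types a member, these counts cannot be set apart from the background shares.

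In goblet-like cells as a whole the ratios were 0.946 (0.766 to 1.17) for Foxo1, 1.07 (0.867 to 1.32) for Foxo3 and 0.845 (0.695 to 1.03) for Foxo4. The high state made up 86 of 838 cells in WT and 797 of 1550 in the other library, and within the states Foxo3 had 0.617 (0.347 to 1.19) in high and 0.878 (0.684 to 1.13) in low cells, both on the other side of 1 from the whole. Foxo4 was lower in the cells low in Clca1 and Zg16, at 0.697 (0.554 to 0.874), from 9.55 CPM (8.19 to 11.1) in WT and 6.65 (5.60 to 7.84) in the other library. In the Mptx1-led cluster alone, where both libraries had over 150 cells, its levels were 7.90 CPM (5.50 to 11.0) and 6.67 (5.61 to 7.88), whose intervals overlap. In enterocyte-like cells Foxo4 had 8.56 CPM and 4.69 CPM, a ratio of 0.548 (0.346 to 0.858), beside 0.958 (0.724 to 1.27) for Foxo1; over both enterocyte-like states, Foxo1 relative to Foxo4 had 1.74 (1.02 to 3.01). In Paneth-like cells the ratios of Foxo1, Foxo3 and Foxo4 were 1.16 (0.809 to 1.67), 0.918 (0.607 to 1.38) and 1.02 (0.699 to 1.47).

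The libraries differed in their mix of types, which enters the all-cell ratio. EECs gave 31.0% of Foxo1 UMIs in WT against 46.5% in the library labelled NFKO. If each of the 22 groups of cells, unnamed ones included, had held Foxo1 at its WT level, the library labelled NFKO would have held 1624 Foxo1 UMIs, and 1381 were counted, a ratio of 0.850. The same calculation gave 0.749 for Foxo3, 0.753 for Foxo4 and 0.948 for Foxo6, in place of 1.07, 0.877 and 1.64 over all cells. Over the 10 enteroendocrine subtypes alone it gave 0.886 for Foxo1, 0.798 for Foxo3, 0.771 for Foxo4 and 0.963 for Foxo6. The plain EEC ratios were 0.853, 0.826, 0.789 and 1.02. For the 22 groups, the median of this calculation over 13474 genes was 0.996, with quartiles of 0.862 and 1.15. Foxo1, Foxo3 and Foxo4 thus lay under the lower quartile and Foxo6 between the quartiles. The plain ratio over all cells had a median of 1.15 for the same genes, with quartiles of 1 and 1.35. By the plain ratio Foxo1 and Foxo3 lay between the quartiles, Foxo4 under them and Foxo6 above.

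**Figure D4:**
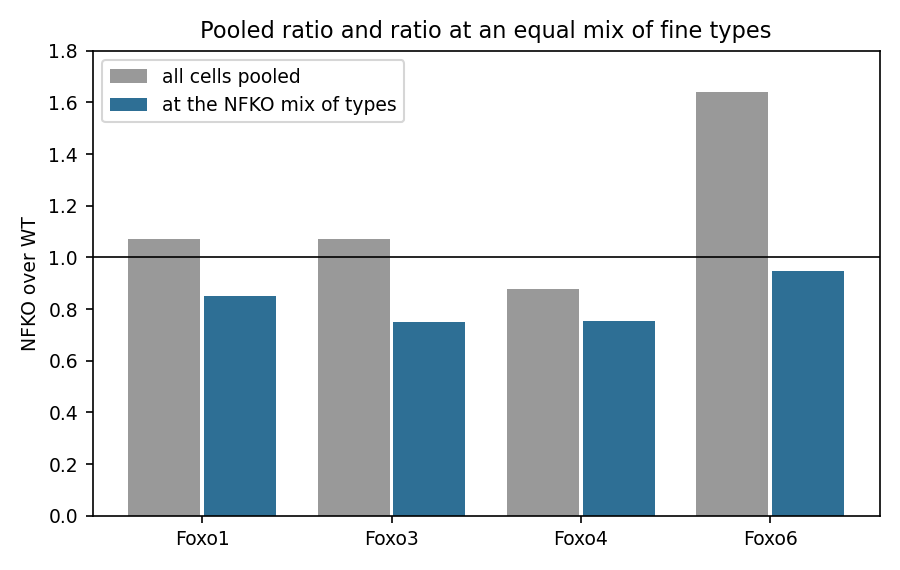
Ratio of the library labelled NFKO to WT for each member, over all cells pooled (grey) and with the WT levels weighted by the mix of types of the library labelled NFKO (blue); bars start at 0 and carry no error, and the line stands at 1. Foxo1 goes from 1.07 to 0.850, Foxo3 from 1.07 to 0.749, Foxo4 from 0.877 to 0.753 and Foxo6 from 1.64 to 0.948. The median over 13474 genes, not drawn, goes from 1.15 to 0.996.

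Genes around FoxO were read in EECs and goblet-like cells, from a list of upstream kinases and receptors, partners and targets; a gene was called past 1.5-fold with an interval without 1. In EECs, 3 of 15 measured upstream genes, 1 of 18 partners and 1 of 17 targets were lower and none of them was higher, beside 4.82% of all 11612 genes lower and 5.08% higher. The EEC pools had unlike mixes of subtypes, with Tph1-led cells 32 of 893 in WT and 261 of 1887 in the other library. Pathway ratios were not formed within EEC subtypes, so the part of this mix was not tested. Igf1r, the IGF-1 receptor, went from 33.1 to 17.3 CPM, a ratio of 0.521 (0.454 to 0.599). Irs2, the adaptor of the insulin and IGF-1 receptors, went from 36.8 to 19.2 CPM, a ratio of 0.521 (0.457 to 0.594). Sirt1, a deacetylase of FoxO proteins, had 0.572 (0.506 to 0.646) and Sgk1, a kinase that phosphorylates them, 0.578 (0.412 to 0.816). The fifth was Klf2, a FoxO target in lymphocytes, at 0.642 (0.622 to 0.662), named after its value was seen. In male-typed EECs these genes had ratios of 0.434 (0.281 to 0.644), 0.453 (0.305 to 0.651), 0.533 (0.380 to 0.732), 0.625 (0.240 to 1.38) and 0.467 (0.426 to 0.510) in the same order. Insr, the insulin receptor itself, had 0.947 (0.847 to 1.06).

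In goblet-like cells 1 of 14 upstream genes, 1 of 19 partners and 3 of 14 targets were lower and 1 target was higher, beside 4.96% and 6.46% of all 9984 genes. These ratios compare unlike pools, since the cluster led by Edn2 and Areg held 585 of 838 cells in WT and 25 of 1550 in the other library. No pathway ratio was formed within a cluster, so the part of this mix in the values was not tested. Pdk4, a mitochondrial kinase that restrains glucose oxidation, went from 5.27 to 0.685 CPM, a ratio of 0.130 (0.0771 to 0.210). Sirt1 went from 25 to 8.68 CPM, a ratio of 0.348 (0.298 to 0.405). Cited2 had 0.546 (0.513 to 0.580), Sgk1 0.614 (0.470 to 0.802) and Klf2, again named after its value was seen, 0.646 (0.617 to 0.677). Ccng2, the gene of cyclin G2, went the other way from 3.32 to 7.40 CPM, a ratio of 2.23 (1.68 to 3). In male-typed goblet-like cells Sgk1 had 0.95 (0.488 to 1.71), so that its call was lost, while Pdk4 had 0.146 (0.0175 to 0.543), Sirt1 0.195 (0.0967 to 0.353), Cited2 0.534 (0.448 to 0.632), Klf2 0.454 (0.392 to 0.524) and Ccng2 2.33 (1.33 to 3.93). The median log2 ratio of the upstream genes, partners and targets was -0.13, 0.01 and -0.17 in EECs and -0.06, 0.00 and -0.01 in goblet-like cells, where all genes had -0.03 in both.

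The genes whose level ran most like that of Foxo1 over the cell types were taken from 8346 genes in WT, over 16 types, and from 8463 in the library labelled NFKO, over 20. In WT they were Trappc8, a vesicle tethering subunit, with a Spearman correlation of 0.95, Rab24 and Patl1 with 0.94, and Ncoa6, a nuclear receptor coactivator, and Shoc2 with 0.93. In the other library they were Zfyve9 with 0.88 and Cerk, Sptan1 and Blcap with 0.87. For Foxo3 they were Proser1 with 0.93, Secisbp2 with 0.92, and Chmp1b, Ccng2 and Atad2b with 0.91 in WT. In the library labelled NFKO they were Ube2z, Castor2 and Plekhg6 with 0.90 and Dock6 and Tollip with 0.89. The genes named for the 2 libraries had none in common. Foxo1 itself had a correlation of 0.74 with Foxo3, 0.51 with Foxo4 and 0.68 with Foxo6 in WT and of 0.71, 0.56 and 0.71 in the other library. These are descriptions over types of 1 library, which share that library and the scaling to all UMIs.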

How the data were processed

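Tomato-positive small intestinal epithelial cells were measured by 10x 3′ scRNA-Seq, with 1 library per genotype. The authors mapped reads to mm10 with Cell Ranger 5.0.1, and the deposited counts are UMIs per gene and barcode, with 90002878 UMIs over 5051 barcodes in WT and 124300388 over 7540 barcodes in NFKO. Cells with under 500 genes, under 1000 UMIs or over 25% mitochondrial UMIs were removed. The automatic Scrublet threshold marked 2 and 0 cells and had not worked, so the highest scores at 0.8% per 1000 cells were removed, 126 and 340 cells. Clustering used Seurat 5.3.0 in R 4.3.3 with 2000 variable genes, 30 components and a resolution of 0.8, leaving out the 4 members and 9 insulin, amylin and sex-linked genes. A type was named from at least 3 markers. Sub-clusters of EECs were called by a hormone gene of at least 1000 CPM. These naming thresholds were set after seeing the data, and 2 shallow clusters stayed unnamed. UMIs were summed per type and library, with exact 95% intervals from SciPy 1.17.1. Shares used cells thinned to 5000 UMIs. Genes named were the members, the 5 genes most alike in pattern to Foxo1 and to Foxo3 in each library, and of the pathway list the 4 largest and 4 smallest called ratios in EECs and goblet-like cells. One gene that this rule names is not reported here. Members and lists were chosen with earlier results of these data known. Alternatives covered scaling, mitochondrial limit, doublet removal, clustering seed, male-typed cells, fold and count minimum. Calculations were tested on simulated data.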

Additional observations from a re-analysis of the deposited data

Results flagged for a closer look

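The Foxo1 ratio of the library labelled NFKO to WT lay on opposite sides of 1 in different types. It was 1.4 in stem-like cells, against 0.537 in secretory progenitor-like, 0.3 in tuft-like and 0.523 in cycling cells, each with an interval that left out 1. Without doublet removal the secretory progenitor-like ratio was 0.695 (0.449 to 1.1). In male-typed cells no Foxo1 interval left out 1 in any named type. The difference between these types was not tested. Median UMIs per cell were 47121 and 51764 in stem-like, 26700 and 32039 in cycling and 6153 and 16720 in tuft-like cells of WT and the other library, and the median share of mitochondrial UMIs was 7.48% and 4.78%, 6.12% and 4.06%, and 12.5% and 4.94%. The part of these in the ratios was not tested.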

How the results depend on the processing

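Under the other settings listed in the methods, 507 values held and 40 moved. A ratio or share was said to hold if it stayed within the main interval, and a count if it was equal or within 1.5-fold. A ratio whose main interval held 1 could thus cross 1 and still hold. Of the values added after seeing the data, 180 held and 21 moved. In male-typed cells of both libraries the number of types with an interval below 1 was 0 for Foxo1, 1 for Foxo3 and 1 for Foxo4, that above 1 was 0 for Foxo1, Foxo1 relative to Foxo4 was 1.38 in EECs, 5.69 in stem-like and 0.831 in goblet-like cells, and 3 pathway genes were lower and 0 higher in goblet-like cells, where Ccng2 at 2.33 and Pdk4 at 0.146 kept their size but fell under the minimum of 100 UMIs and Sgk1 moved to 0.95. Without the abundant genes, an alternative chosen after seeing the data, Foxo4 was below 1 in 5 types, and Foxo3 in other over defensin-led Paneth-like cells of WT went from 2.27 to 0.774, the only value with an interval apart from 1 that changed direction. At 2000 UMIs per cell, the share with Foxo1 was 6.28% and 4.49% of EECs and 1.43% and 1.66% of goblet-like cells in WT and the other library. With the mean of per-cell CPM the EEC level over the goblet level was 2.95 for Foxo3 in WT and 2.41, 1.74 and 1.33 for Foxo1, Foxo3 and Foxo4 in the other library. With a fold of 2 instead of 1.5, 0 pathway genes were lower in EECs and 2 in goblet-like cells, and with at least 50 UMIs 2 were higher in goblet-like cells. No share over all genes was formed at these other settings, male-typed cells and the scaling without abundant genes included. The counts of genes and types at these settings therefore cannot be set against a background. Ratios whose interval held 1 did change side, such as Foxo1 in goblet-like cells from 0.946 to 1.06 and Foxo4 in other enterocyte-like cells from 0.613 to 1.14 by the mean of per-cell CPM, and Foxo1 relative to Foxo4 in goblet-like cells from 1.12 to 0.831 in male-typed cells. Secretory progenitor-like cells were not named with clustering seeds 2 and 3, and without doublet removal their Foxo1 ratio was 0.695 (0.449 to 1.1). The cause of these shifts was not tested. No paired analysis was possible because each group has 1 library, and for the same reason no library could be left out. Depth limits the subtypes: Cck-led, Pyy-led, Sst-led and Tph1-led cells had 15 Foxo1 UMIs or fewer in WT.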

Other observations

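Of the 2 clusters left unnamed for their shallow cells, the one richest in Gip, at 102322 CPM, held Foxo1 at 50.1 CPM (33.6 to 72.0) in 142 WT cells and at 27.1 CPM (11.7 to 53.4) in 109 cells of the library labelled NFKO. Foxo3 had 50.1 CPM (33.6 to 72.0) and 33.9 CPM (16.2 to 62.3) there, and Foxo6 15.6 CPM (7.11 to 29.5) and 27.1 CPM (11.7 to 53.4). The median cell of this cluster held 3969 and 1718 UMIs. The other unnamed cluster had Foxo1 at 20.1 CPM (5.48 to 51.5) in 45 WT cells and at 11.2 CPM (4.83 to 22.0) in 282 cells.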
